A study of Mus musculus with 2 samples.

Results

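The genes described here choose and mark splice sites. They are 34 of 55536 annotated genes: 11 SR proteins, 2 Tra2 proteins, 4 CLK and 2 SRPK kinases, 7 SR-related proteins, 4 U1 and LUC7 proteins, and 4 genes of U2AF and SF1. They were taken by gene symbol from the GENCODE M21 mouse annotation, and all 34 were found in every table. The list was chosen by their gene levels and their shares of TPM over transcript classes in the same 2 libraries, as well as by their role, so these levels and shares are a description and none was tested.

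SR proteins carry a domain rich in serine and arginine, bind exons, and bring U1 to the start of an intron and U2AF to its end. SRPK and CLK kinases phosphorylate that domain, which moves SR proteins into the nucleus and out of nuclear speckles to sites of splicing. Many SR protein genes are known to limit their own output through a transcript that keeps an intron or gains a poison exon, an exon with an early stop codon that sends the mRNA to nonsense-mediated decay. The annotation names these forms, and below a transcript annotated as retained intron is called that, and one annotated as a target of nonsense-mediated decay is called decay-targeted.

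Chromatin-associated RNA, which is enriched in RNA still being made or not yet released, was sequenced as total RNA after ribosomal RNA depletion. The cells were primary macrophages grown from the bone marrow of C57BL/6J mice, and the labels name no mutation or transgene, and record neither sex nor age. Both libraries belong to 1 group, the 0-minute point of stimulation with 100 ng/ml lipid A, the endotoxin anchor that is sensed by the receptor Tlr4. Replicate 1 was made from 250 ng of RNA and replicate 2 from 500 ng, and both carry the same donor entry, so the spread between them may be technical. With 1 group there is no condition to compare and no p-value.

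The gene tables held 10970767 expected counts in replicate 1 and 14207280 in replicate 2. Over 11438 protein-coding genes the libraries differed by more than counting noise, with a chi-square of 5.92 per degree of freedom, so they were kept as 2 samples. A second transcript table, made from the same reads by another route, is set beside the first where it turns an order or a call. All 10 macrophage markers were detected, with summed levels of 744 and 632 TPM in replicates 1 and 2. Of 4 markers each of T cells, B cells, neutrophils, fibroblasts and erythroid cells none was detected, and no list of these summed to more than 1.10 TPM in either library. In these bulk libraries fewer cells of a type and less RNA per cell cannot be told apart.

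Most of the splicing regulators were well above the typical protein-coding gene in chromatin-associated RNA, though their levels ranged widely. At a threshold of 1 TPM (a read level divided by transcript length and scaled to the same sum in each library) in both libraries, 33 of 34 were detected, beside 46.7% of all 22028 protein-coding genes. Their median level was 80.97 ± 0.24 TPM (SD of the 2 libraries' medians), and that of all protein-coding genes was 0.72 TPM. The lowest of the 33, Srsf9 at 16.0 TPM, stood above 11.1 TPM, the median of the protein-coding genes that were detected. Among the 100 most abundant protein-coding genes, which are 0.454% of all, 10 were members. Together they held 2.26% and 2.42% of the TPM of protein-coding genes in replicates 1 and 2. In the order of levels, 18 of 33 neighbouring pairs overlapped between libraries, so their order was not resolved.

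**Figure D1:**
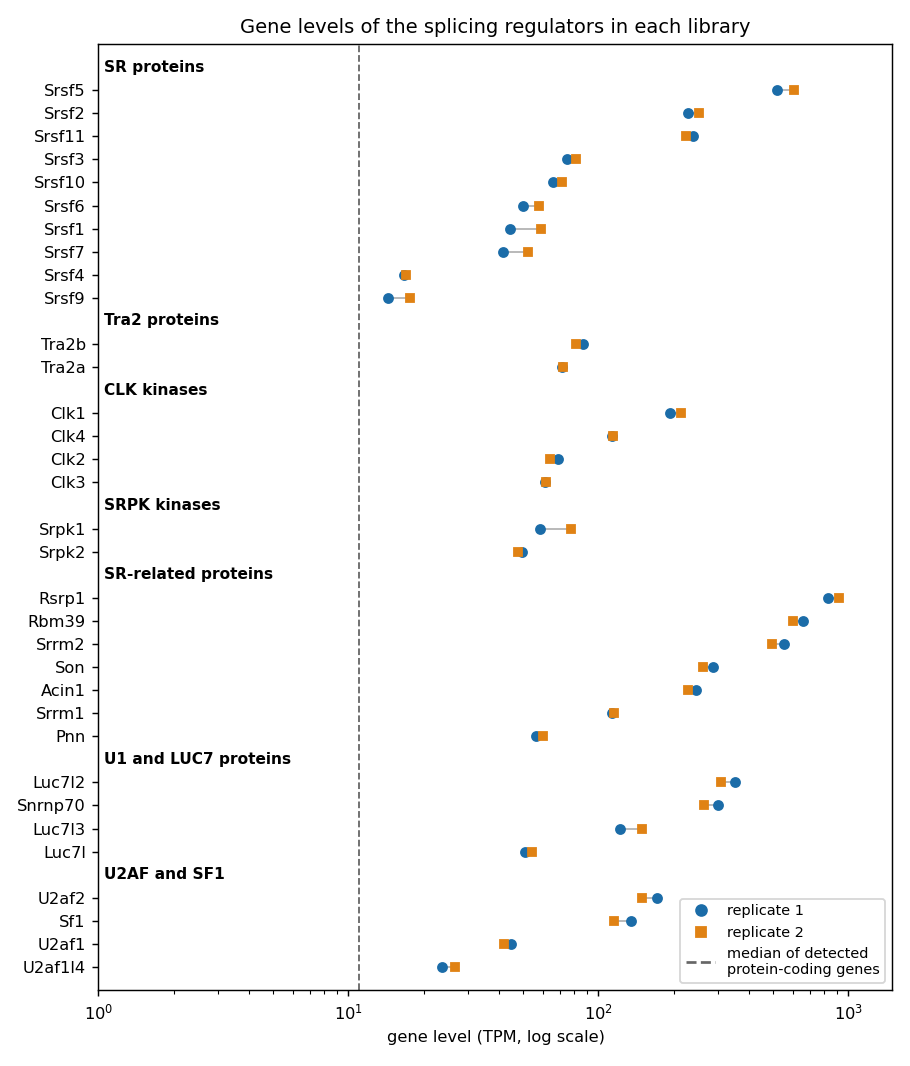
Gene level of each detected member (TPM, log axis) in replicate 1 (circles) and replicate 2 (squares), by role, with a dashed line at 11.1 TPM, the median of detected protein-coding genes. The points run from Srsf9 at 14.5 TPM to Rsrp1 at 919 TPM and all lie right of the line. Srsf12, at 0 in replicate 2, cannot be drawn on a log axis.

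Most of this RNA was not assigned to the coding form. Of the members' summed expected counts, 49.4 ± 1.26% lay on retained-intron transcripts, 39.6 ± 0.758% on protein-coding ones, 6.28 ± 0.605% on decay-targeted ones and 4.70 ± 0.104% on all other types (SD, n = 2). For all protein-coding genes these shares were 25.1%, 67.8%, 3.44% and 3.70%. A single transcript, Rsrp1-204, had 18687 and 29964 of the members' 64093.6 and 96887.5 counts on retained-intron transcripts in replicates 1 and 2. The deposited tables count reads on annotated transcripts alone, so reads from an intron count only where some annotated transcript keeps that intron. In chromatin-associated RNA an intron not yet spliced out and one that stays in the transcript cannot be told apart by these shares. The members are annotated more deeply: among genes with at least 100 expected counts in each library they had a median of 10 transcripts, 3 of them retained-intron and 2 decay-targeted, against 6, 1 and 0 for all protein-coding genes. The part of this difference in the shares was not tested.

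Gene by gene, the share on retained-intron transcripts spanned a wide range. Of the 34 members, 32 had at least 100 counts in each library, and 30 of these had an annotated retained-intron transcript. The share of the gene's TPM on such transcripts was 50% or more in 20 of the 30, beside 48.1% of 5042 protein-coding genes with the same minimum. The median share was 62.6% for the members and 49.0% for all such genes. Taken over expected counts, which do not divide by length, the share was again 50% or more in 20 of 30 members, beside 30.5% of all genes, and the medians were 60.5% and 31.2%. By both measures 17 members were at 50% or more. Rbm39, Sf1 and Srrm1 were so by TPM only, and Srsf5, Srsf4 and Tra2b by counts only. Around the threshold, Srsf2 stood just above it at 56.9% and Tra2b just below it at 49.4%.

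The share was steadier between libraries than between members. All 20 members at 50% or more by TPM were so in each library on its own. Replicates differed by a median of 2.44 percentage points and at most by 8.66, for Srpk1. In 25 of 30 members the retained-intron share exceeded the coding share, beside 56.7% of protein-coding genes. The coding share was under 20% in 13 of 32 members, beside 10.8% of 7274 protein-coding genes. It was 50% or more in 3 members, Srsf9, Luc7l3 and Pnn, beside 50.7% of those genes. Pnn alone of these 3 was at 50% or more in the second table, with 70.3%, against 40.7% for Luc7l3 and 37.8% for Srsf9.

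**Figure D2:**
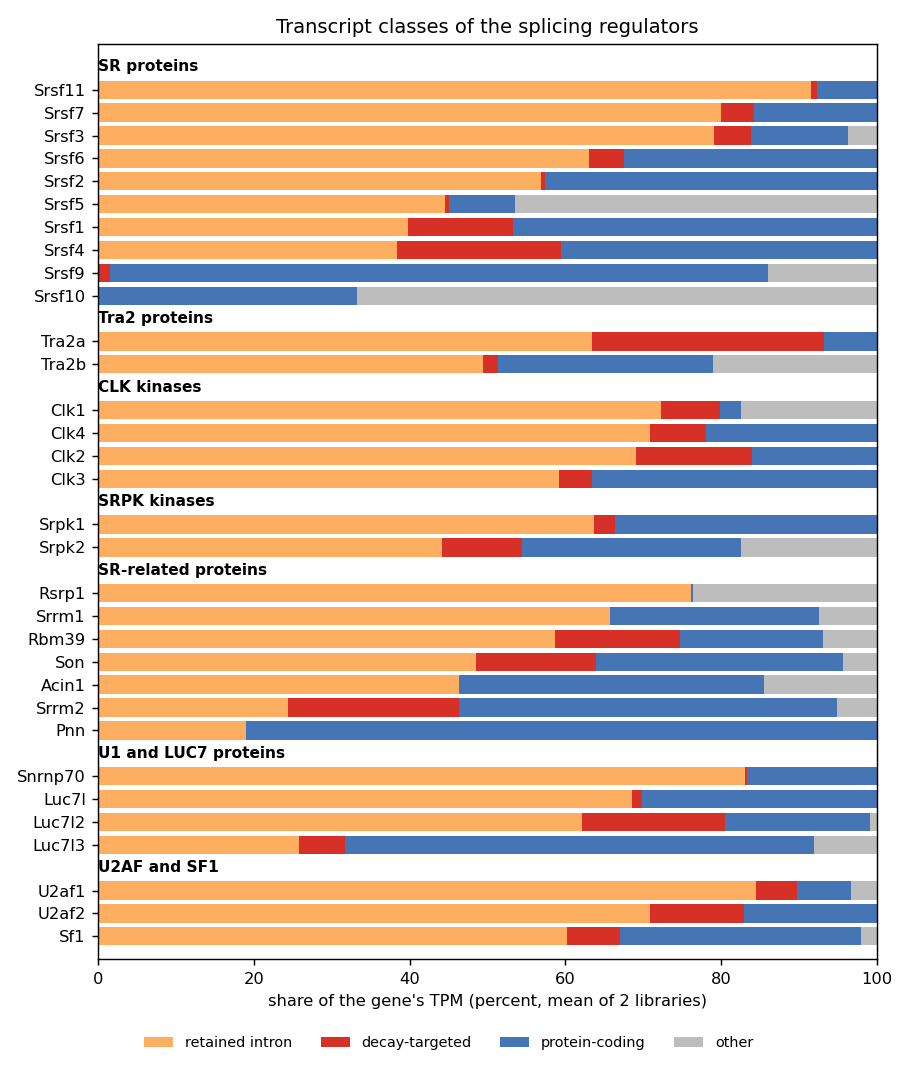
Share of each gene's TPM (percent, mean of 2 libraries) on retained-intron, decay-targeted, protein-coding and other transcripts for the 32 members with at least 100 counts in each library, by role. Retained-intron transcripts fill most of the bar in 20 members, from Srsf11 (91.6%) to Srsf2 (56.9%), while Pnn (19.0%) is mostly coding and Srsf9 and Srsf10 have no such transcript in the annotation.

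**Figure D3:**
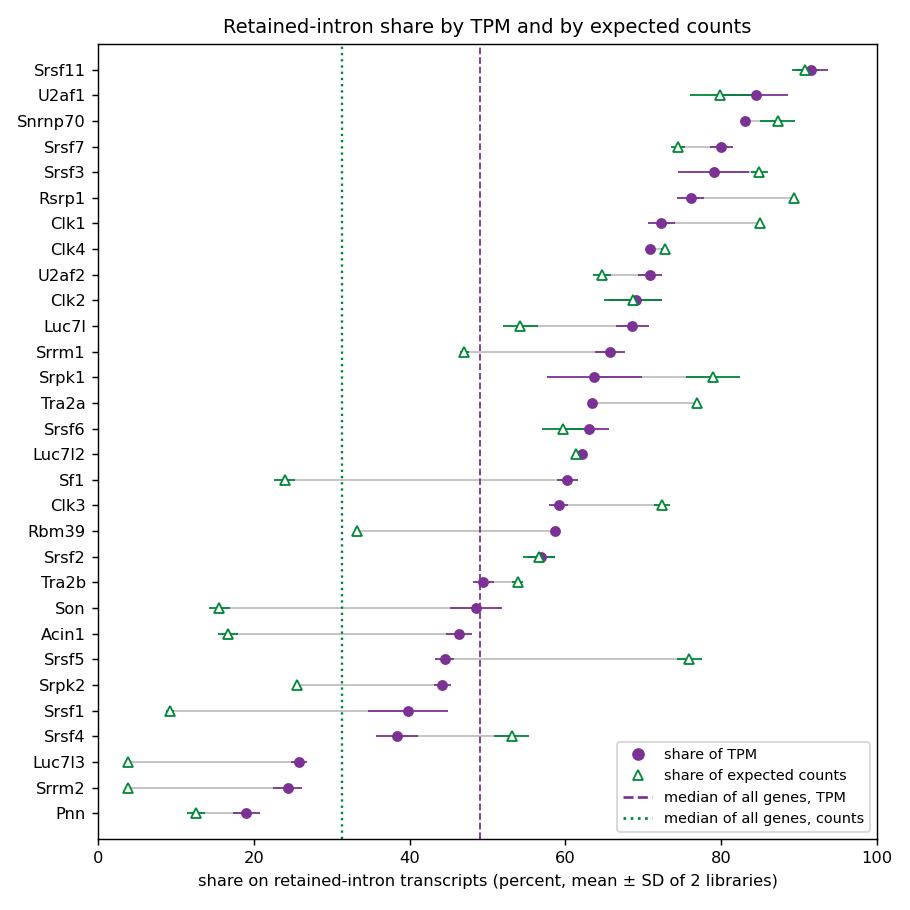
Retained-intron share of 30 members (percent, mean ± SD of 2 libraries) over TPM (filled circles) and over expected counts (open triangles), with the medians of all protein-coding genes at 49.0% (dashed) and 31.2% (dotted). Sf1, Son, Srsf1, Acin1, Rbm39, Luc7l3 and Srrm2 are more than 20 points lower by counts, and Srsf5 is higher.

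A retained-intron label does not by itself mean that a whole intron was kept. The 133 retained-intron transcripts of the members were compared with all annotated coding transcripts of their genes. Of these, 43, or 32.3%, ran through at least 1 complete intron of some coding transcript. Among protein-coding genes with at least 100 counts in each library, 31.0% of 13914 retained-intron transcripts did so, a near equal share. The members' 43 held 59.3% and 63.2% of the counts on the class in replicates 1 and 2. For those protein-coding genes that part was 45.7% and 46.6%. Rsrp1-204 alone, 1 of the 43, had 18687 and 29964 of the members' 64093.6 and 96887.5 counts on the class. The members' part thus leans on 1 gene, and it was not computed without that gene. The members' retained-intron transcripts outside the 43 kept no such intron whole. A narrower count took only the leading coding transcript, meaning the most abundant one of each gene. Of 284 introns in these, 34, in 18 members, were held in full. Their median length was 473.5 bases, against 926.5 bases for the 250 that were not held. All 34 started with GT and ended with AG, and pyrimidines made up a median of 77.8% of the 18 bases before that AG. Over the 9 bases around the 5′ splice site, a median of 6 matched CAGGTAAGT, the sequence best paired with U1, with a range of 4 to 8 and no site matching all 9. The number, lengths and sites of introns held in full in leading coding transcripts were not computed for genes at large. Site values were not computed for the 250 introns that were not held, so none of these is shown to be particular to the 34.

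The CLK kinases shared one arrangement around exon 4. CLK proteins phosphorylate SR proteins inside the nucleus, and skipping of exon 4 in Clk1 is known to leave a reading frame without the kinase domain. Clk1 (chr1:58410189-58424066, minus strand) stood at 193 and 214 TPM in replicates 1 and 2. Clk4 (chr11:51261730-51281766, plus strand) had 113 and 114 TPM. Clk1 was the higher in both libraries, by more than their spread. Clk2 (chr3:89164795-89176921, plus strand) had 69.1 and 64.1 TPM, and Clk3 (chr9:57750624-57765860, minus strand) had 61.0 and 61.5 TPM. Clk2 was above Clk3 in each library without overlap. All 4 were past 50% for retained-intron transcripts, with 72.3 ± 1.73% in Clk1, 70.9 ± 0.402% in Clk4, 69.0 ± 3.37% in Clk2 and 59.1 ± 1.19% in Clk3.

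In each CLK gene at least 1 retained-intron transcript ran through both introns beside exon 4, and the most abundant one is taken as the held form. Exon 4 was 91 bases long in Clk1 and Clk4, 88 or 85 in Clk2 and 97 in Clk3, and the exon after it was 67 bases in all 4. None of these exon 4 lengths is a multiple of 3, so leaving the exon out shifts the frame. Clk1-204, which keeps introns of 871 and 387 bases, had 52.7 and 55.9 TPM in replicates 1 and 2. Clk4-213 had 24.5 and 26.0 TPM, Clk3-203 had 17.7 and 17.3 TPM and Clk2-207 had 12.5 and 13.0 TPM. Each of these 4 transcripts held between 18.1% and 29.0% of its gene's TPM in either library. In Clk1 a second transcript, Clk1-212, also ran through both introns, with 10.6 and 12.3 TPM. It is left out of the held form here and below.

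Decay-targeted transcripts that join exon 3 to exon 5 were present in all 4 genes. In Clk1 they summed to 13.4 and 17.5 TPM, against 4.32 and 6.42 TPM for the coding transcript with exon 4. Skipping thus exceeded inclusion in both libraries for Clk1. In Clk3 the order was the other way round, with 3.95 and 1.28 TPM skipped and 16.7 and 17.96 TPM included. Clk2 had 11.0 and 8.95 TPM skipped and 10.6 and 8.19 TPM included, values that overlap. Clk4 had 9.54 and 6.76 TPM skipped and 6.42 and 7.09 TPM included, which also overlap, and a further coding transcript without the exon, Clk4-203, had 7.65 and 2.84 TPM. The most abundant coding transcript of Clk4, Clk4-202, starts after exon 4 and counts on neither side. In the second transcript table the skipped sum of Clk4 was 21.5 and 27.5 TPM, above its held form at 13.7 and 22.8 TPM, so the order within Clk4 depends on the table. The 3 other genes had more TPM on the held than on the skipped form in both tables.

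The splice sites of the intron after exon 4 are printed because the same letters recur in the 4 genes. They were read from the GENCODE M21 transcripts that keep the intron, on build mm10. The first set shows 3 exon bases and 6 intron bases of the 5′ site, with the GT in capitals, at chr1:58420115-58420123 (minus), chr3:89169700-89169708 (plus), chr9:57758621-57758629 (minus) and chr11:51273166-51273174 (plus).
Clk1 5′ site: gatGTatag
Clk2 5′ site: gatGTacaa
Clk3 5′ site: gatGTacag
Clk4 5′ site: gatGTatag
Each site matched CAGGTAAGT at 4 of 9 bases. In Clk1, Clk2 and Clk3 this intron belongs to the 34 above, and 4 was the lowest number of matches among them. Clk1 and Clk4 were identical at 9 of 9 bases, and any 2 of the 4 genes at 7 or more. The 5′ sites of the intron before exon 4 were identical at 3 to 8 of 9 bases, with 3 between Clk1 and Clk2 and 8 between Clk2 and Clk3.

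The second set shows the 3′ end of the same intron with its AG in capitals and 3 bases of exon 5, at chr1:58419731-58419753 (minus), chr3:89170029-89170051 (plus), chr9:57758348-57758370 (minus) and chr11:51273540-51273562 (plus).
Clk1 3′ site: taattattcctcttttttAGatg
Clk2 3′ site: cctactttctttcgtttcAGatg
Clk3 3′ site: cagcttcttctttctcacAGatg
Clk4 3′ site: ctttctctcccttactttAGatg
All 4 end in AGatg after a run of pyrimidines, the kind of sequence that U2AF binds. A match of letters is a description of the gene and no measure of splicing.

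The SRPK kinases phosphorylate SR proteins mainly in the cytoplasm. Srpk1 had 58.5 and 77.4 TPM in replicates 1 and 2, and Srpk2 had 49.25 and 47.65 TPM. Srpk1 was higher than Srpk2 in both libraries, and by more in the second table, with 80.5 and 128 TPM for Srpk1 and 37.8 and 61.2 TPM for Srpk2. Retained-intron transcripts held 63.7 ± 6.12% of Srpk1 and 44.2 ± 1.08% of Srpk2. Srpk2 overlaps Kmt2e on the other strand by 972 bases, and Kmt2e had 2129 and 3302 counts. No label or header says whether strand was recorded, so reads in such an overlap cannot be told apart. An overlap with another annotated gene was found for 16 members, 15 of them with a gene on the other strand. Mettl23, with 160 and 259 counts, covers all 3194 bases of Srsf2 on the other strand, and Mfsd11, with 1327 and 2032 counts, covers 655 of them. On the same strand A930004J17Rik, with 725 and 1074 counts, shares 4610 bases with Srsf4.

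Among the SR proteins the levels spanned more than an order of magnitude. Srsf5 (chr12:80945504-80950507, plus strand) was highest at 516 and 604 TPM in replicates 1 and 2. Srsf2, long known as SC35 and used to mark nuclear speckles, had 228 and 252 TPM. Srsf11 had 238 and 224 TPM. Srsf5 was above both in each library, while the values of Srsf2 and Srsf11 overlapped. The second table gave Srsf5 277 and 498 TPM and Srsf11 166 and 261 TPM. Below them came Srsf3 at 74.8 and 81.05 TPM and Srsf10, known to repress splicing when it is not phosphorylated, at 65.7 and 71.65 TPM. Srsf6 had 49.7 and 58.0 TPM, Srsf1 44.25 and 59.2 TPM, and Srsf7 41.7 and 52.1 TPM. These 3 overlapped one another. Srsf4 had 16.7 and 16.9 TPM from 364 and 530 counts, and Srsf9 14.5 and 17.6 TPM from 133 and 250 counts.

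Srsf12 was the member that was not detected. It had 3 and 0 counts in replicates 1 and 2, and a count of 0 allows up to 3 counts by counting error alone. The second transcript table gave it 91.9 and 100.4 estimated counts, or 1.41 and 1.59 TPM, so it was not detected in the first tables alone.

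Of 8 SR proteins with enough counts and an annotated retained-intron transcript, 5 had 50% or more of their TPM there: Srsf11, Srsf7, Srsf3, Srsf6 with 63.0 ± 2.51% and Srsf2 with 56.9 ± 1.72%. In Srsf2 the retained-intron transcript Srsf2-203 had 127 and 146 TPM in replicates 1 and 2, against 93.45 and 91.8 TPM for the coding Srsf2-201. Srsf1, the founding SR protein, had 39.8 ± 5.12% by TPM and 9.20 ± 0.492% by counts, and its decay-targeted share was 6.44% in replicate 1 and 20.5% in replicate 2, a wide spread. Srsf11 (chr3:158010473-158036639, minus strand) had 93.1% and 90.1%, the highest share of the 30 members by the TPM of the first table. Its 11 retained-intron transcripts were led by Srsf11-208 at 66.1 and 61.9 TPM, and none of them ran through a complete intron of a coding transcript. The coding transcript Srsf11-201 had 6.64 and 10.5 TPM. Coding transcripts made up 7.74 ± 1.78% of the gene and decay-targeted ones 0.664 ± 0.297%. In the second table the retained-intron share of Srsf11 was 77.4%, below Srsf7 at 81.7% and Snrnp70 at 80.2%.

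Srsf7 (chr17:80200080-80207307, minus strand), which has a zinc knuckle, had 80.0 ± 1.44% on retained-intron transcripts, 15.8 ± 1.34% on coding and 4.20 ± 0.0994% on decay-targeted ones. Srsf3 (chr17:29032628-29043373, plus strand), the smallest SR protein, had 79.0 ± 4.61%, 12.4 ± 1.68% and 4.82 ± 1.61% on the same 3 classes. In both genes a retained-intron transcript ran through intron 3, and a decay-targeted transcript used an exon inside that intron. Srsf3-204, which keeps this intron of 2150 bases, had 27.1 and 27.5 TPM in replicates 1 and 2. The exon form, Srsf3-201, had 2.75 and 4.83 TPM, and the coding Srsf3-202 had 10.2 and 9.09 TPM. In Srsf7 the held intron has 874 bases, and Srsf7-207 had 20.7 and 21.6 TPM. Its exon form, Srsf7-203, had 1.78 and 2.15 TPM, and the coding Srsf7-201 had 6.97 and 7.01 TPM. The order was the same in both genes and both libraries: held intron first, coding next, exon form last.

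The borders of these introns, and of 2 more that abundant transcripts keep, are shown so that strong and weak sites can be compared. The 5′ sites, with GT in capitals, lie at chr17:29038622-29038630 (plus), chr17:80205256-80205264 (minus), chr12:80947863-80947871 (plus) and chr4:134925430-134925438 (plus).
Srsf3 intron 3 5′ site: cagGTactt
Srsf7 intron 3 5′ site: cagGTattt
Srsf5 intron 5 5′ site: cagGTttgt
Rsrp1 intron 3 5′ site: gagGTaagt
The first 3 matched CAGGTAAGT at 7 of 9 bases and Rsrp1 at 8 of 9, so these held introns have closer matches than the CLK introns. The 3′ sites, with AG in capitals, lie at chr17:29040755-29040777 (plus), chr17:80204385-80204407 (minus), chr12:80949075-80949097 (plus) and chr4:134926715-134926737 (plus).
Srsf3 intron 3 3′ site: tttactgtttctgcttctAGatc
Srsf7 intron 3 3′ site: ttttctaacttaaaaaatAGgtc
Srsf5 intron 5 3′ site: cataattgtcttgtgttaAGgat
Rsrp1 intron 3 3′ site: aaaattctcttcctctttAGcat
Pyrimidines made up 83.3% of the 18 bases before the AG in Srsf3 and 77.8% in Rsrp1, against 55.6% in Srsf7 and 61.1% in Srsf5.

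The exon with the early stop in Srsf3 and Srsf7 lies between these sites. Its coding part is printed up to the stop codon, in capitals, at chr17:29039454-29039487 (plus) and chr17:80205054-80205081 (minus). Both were chosen after their values were seen, because of their place in a held intron.
Srsf3-201: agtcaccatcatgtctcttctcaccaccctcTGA
Srsf7-203: gtttcttcgtttgagtcagtcgcctTGA
The whole exon has 456 bases in Srsf3 and 460 in Srsf7, so the reading frame ends within its first 34 and 28 bases.

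Srsf5 differed in where its TPM lay. Retained-intron transcripts had 44.5 ± 1.22% of its TPM and 75.9 ± 1.57% of its counts. Coding transcripts had 8.56 ± 0.756% of the TPM, decay-targeted ones 0.511 ± 0.223% and other types 46.5 ± 0.688%. Srsf5-212, which keeps intron 5 of 1229 bases, had 187 and 218 TPM in replicates 1 and 2. Srsf5-206, an 886-base processed transcript with no annotated reading frame, had 160.35 and 210.4 TPM. The coding Srsf5-201 had 18.6 and 28.4 TPM. Both noncoding forms were far above the coding form in each library.

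Srsf4 and Srsf9 were the lowest detected SR proteins and were unlike each other. In Srsf4 (chr4:131873617-131901706, plus strand) coding transcripts held 40.6 ± 0.266% of the TPM, retained-intron ones 38.3 ± 2.68% and decay-targeted ones 21.1 ± 2.95%. The second table gave Srsf4 a decay-targeted share of 47.9%, more than 2-fold higher. In Srsf9 (chr5:115327177-115333080, plus strand) coding transcripts held 84.5 ± 1.60% in the first table but 37.8% in the second, where other types took 59.2%. Srsf10, with no annotated retained-intron or decay-targeted transcript, had 33.2 ± 0.607% on coding and 66.8 ± 0.607% on other types. By counts the coding share of Srsf10 was 76.35 ± 1.28%.

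The Tra2 proteins, SR-like activators that bind exonic enhancers, had similar levels and different splits. Tra2b had 86.8 and 81.2 TPM in replicates 1 and 2, and Tra2a (chr6:49243924-49264033, minus strand) had 71.6 and 72.2 TPM. Tra2b was higher in both libraries. The decay-targeted share of Tra2a was 28.5% in replicate 1 and 31.0% in replicate 2, the highest of the members with enough counts by the TPM of the first table. By counts it was 19.5%, below Rbm39 at 24.6% and Son at 24.2%, and it was 44.5% in the second table, below Srsf4 at 47.9%. Its retained-intron share was 63.5 ± 0.465% and its coding share 6.79 ± 2.17%. Tra2b had 1.94 ± 0.705% on decay-targeted, 49.4 ± 1.38% on retained-intron and 27.5 ± 0.466% on coding transcripts.

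Tra2a has 1 annotated decay-targeted transcript, Tra2a-202, which adds a 306-base exon. It had 20.4 and 22.4 TPM in replicates 1 and 2, against 2.49 and 3.79 TPM for the leading coding transcript Tra2a-204. The exon form was above the coding form in both libraries and also in the second table, at 21.1 and 34.1 TPM against 0.534 and 1.15 TPM. The corresponding transcript of the paralog, Tra2b-206, adds a 276-base exon and had 1.25 and 1.98 TPM, below the 13.4 and 11.6 TPM of Tra2b-201. Tra2b-201 starts after the place of that exon, so it neither includes nor skips it and is no direct counterpart of Tra2b-206. Tra2a overlaps Gm43980 on the other strand by 1612 bases, and Gm43980 had 508 and 804 counts. The part of that overlap in the values of Tra2a was not tested.

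The coding part of both added exons is shown to compare the paralogs, with the stop codon in capitals, at chr6:49252965-49253108 (minus) for Tra2a and chr16:22259181-22259261 (minus) for Tra2b. The Tra2b exon was chosen after its values were seen.
Tra2a-202: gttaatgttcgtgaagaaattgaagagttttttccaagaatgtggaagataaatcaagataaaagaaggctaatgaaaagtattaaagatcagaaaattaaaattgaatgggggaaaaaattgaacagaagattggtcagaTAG
Tra2b-206: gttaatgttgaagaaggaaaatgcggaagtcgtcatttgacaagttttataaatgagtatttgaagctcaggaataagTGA
The 2 exons share their first 9 bases. Within the exon the reading frame runs for 144 bases in Tra2a and 81 in Tra2b, stop codon included.

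The SR-related proteins included the highest levels of all. Rsrp1 (chr4:134923592-134927671, plus strand), a protein rich in arginine and serine, had 830.2 and 919 TPM in replicates 1 and 2 and was at rank 4 of the protein-coding genes. Rbm39 (chr2:156147239-156180238, minus strand), a relative of U2AF and the target of the sulfonamide degraders, had 660.25 and 602 TPM. Srrm2 (chr17:23790532-23824741, plus strand), a scaffold of nuclear speckles, had 554 and 493 TPM. Rsrp1 was above Rbm39 in both libraries, and Rbm39 above Srrm2. In the second transcript table the order of the first pair turned, with 460.4 and 802 TPM for Rsrp1 and 729.6 and 1058 TPM for Rbm39. Son, the other speckle scaffold, had 286 and 261 TPM, and Acin1, part of the exon junction-associated ASAP complex, 245 and 228 TPM. Srrm1 had 113 and 116 TPM, and Pnn, which binds near exon junctions, 56.3 and 59.9 TPM. Of these genes Srrm1 had 65.7 ± 1.94% of its TPM on retained-intron transcripts, Son 48.5 ± 3.33% and Acin1 46.3 ± 1.66%. Son also had 15.4 ± 4.65% on decay-targeted transcripts.

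Almost none of the Rsrp1 signal lay on its annotated coding transcript. Retained-intron transcripts held 76.1 ± 1.72% of the TPM, other types 23.6 ± 1.74% and coding ones 0.360 ± 0.0137%. Rsrp1-204, the single retained-intron transcript, had 642 and 688 TPM in replicates 1 and 2, from 18687 and 29964 counts. The coding Rsrp1-201 had 3.07 and 3.22 TPM, from 48.0 and 75.2 counts. Both transcripts gave close values in the 2 libraries. Rsrp1-204 keeps intron 3, of 1302 bases, whose sites are shown above.

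Rbm39 spread its TPM over all classes. Retained-intron transcripts held 58.7 ± 0.301%, coding ones 18.4 ± 0.542%, decay-targeted ones 16.0 ± 1.17% and other types 6.95 ± 0.925%. By counts the retained-intron share of Rbm39 was 33.3 ± 0.0945% and the decay-targeted share 24.6 ± 2.44%. Rbm39-223, which adds a 72-base exon with a stop codon, had 62.7 and 59.0 TPM in replicates 1 and 2. The coding Rbm39-217 had 103 and 96.7 TPM, higher in both libraries of the first table. It was lower in both libraries of the second table, with 42.5 and 55.7 TPM against 61.0 and 98.1 TPM for Rbm39-223. Rbm39-225, with another added exon of 73 bases, had 14.9 and 25.6 TPM in the first table but 1.88 and 3.91 TPM in the second. Its level therefore depends on the table. Rbm39-224, of 585 bases, had 5.03 and 9.31 TPM in the first table and 102 and 153 TPM in the second, where the decay-targeted share of the gene was 32.3%.

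Srrm2 and Pnn had the lowest retained-intron shares of the 30 by the TPM of the first table. By counts Luc7l3, at 3.76%, and Srsf1, at 9.20%, were also below Pnn, and in the second table Luc7l3, at 28.5%, was below Pnn, at 29.7%. In Srrm2 coding transcripts held 48.6 ± 1.43% of the TPM, retained-intron ones 24.3 ± 1.90% and decay-targeted ones 22.0 ± 4.29%. By counts coding transcripts held 91.6 ± 0.383% and decay-targeted ones 1.37 ± 0.264%. The transcripts differ in length: Srrm2-203, the leading decay-targeted transcript, has 494 bases and the coding Srrm2-210 has 8864. Srrm2-203 had 94.2 and 116 TPM from 250 and 454 counts, and Srrm2-210 had 202 and 184 TPM from 18070 and 24672 counts. Pnn (chr12:59066884-59073998, plus strand) had 81.0 ± 1.76% on coding and 19.0 ± 1.76% on retained-intron transcripts, with no count on its decay-targeted one.

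The exons with early stops in Rbm39 and Srrm2 are printed because their transcripts lead the decay-targeted class of these genes by the TPM of the first table. The coding part is shown with the stop codon in capitals, at chr2:156174126-156174168 (minus), chr2:156178881-156178952 (minus) and chr17:23811817-23811859 (plus).
Rbm39-223: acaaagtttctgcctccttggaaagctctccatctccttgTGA
Rbm39-225: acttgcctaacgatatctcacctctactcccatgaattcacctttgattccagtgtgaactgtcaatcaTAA
Srrm2-203: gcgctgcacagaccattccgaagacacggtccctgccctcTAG
The 3 exons use a different stop codon each. The frame ends after 43 bases in Rbm39-223 and Srrm2-203 and after 72 in Rbm39-225.

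The U1 and LUC7 proteins act at the 5′ splice site. Luc7l2 (chr6:38551334-38609470, plus strand), a U1-associated protein, had 351 and 308 TPM in replicates 1 and 2. Snrnp70 (chr7:45376453-45395742, minus strand), which encodes the U1-70K subunit, had 301 and 265 TPM. Luc7l3 (chr11:94287890-94321988, minus strand) had 122 and 149 TPM, and Luc7l had 50.8 and 54.0 TPM. Luc7l2 and Snrnp70 were above Luc7l3 in both libraries, and Luc7l3 above Luc7l.

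Snrnp70 had one of the highest retained-intron shares, 83.1 ± 0.636%, with 16.6 ± 0.804% on coding and 0.270 ± 0.168% on decay-targeted transcripts. It was led by Snrnp70-216 at 67.2 and 50.3 TPM, against 31.0 and 34.3 TPM for the coding Snrnp70-201. Luc7l2 had 62.1 ± 0.525% on retained-intron, 18.7 ± 1.48% on coding and 18.4 ± 1.47% on decay-targeted transcripts. Its decay-targeted Luc7l2-204 had 36.4 and 36.4 TPM, which overlapped the coding Luc7l2-207 at 41.6 and 27.0 TPM. Luc7l2-204 was higher in the second table, with 31.2 and 41.9 TPM against 18.7 and 24.6 TPM for Luc7l2-207. In Luc7l3 coding transcripts led with 60.2 ± 3.83% by TPM and 92.2 ± 1.78% by counts. Luc7l had 68.6 ± 2.17% on retained-intron transcripts. The retained-intron share of Luc7l3 was 25.8 ± 1.02% by TPM and 3.76 ± 0.0601% by counts, and its decay-targeted share 5.89 ± 2.40% by TPM.

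U2AF and SF1 recognise the 3′ splice site. U2af2, which encodes the large subunit that binds the pyrimidine run, had 172 and 150.04 TPM in replicates 1 and 2. Sf1, the branch point binding protein, had 135.5 and 116 TPM. U2af1 (chr17:31647081-31658892, minus strand), the small subunit that reads the AG, had 44.6 and 41.9 TPM from 241 and 332 counts. The 3 kept this order in both libraries of the first table. In the second table Sf1, at 135.3 and 195.8 TPM, was above U2af2, at 119.5 and 168 TPM. U2af1l4 (chr7:30563301-30565365, plus strand), a relative of the small subunit, had 23.6 and 26.6 TPM from 92 and 146 counts.

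All 3 genes of this group with enough counts were past 50% by the TPM of the first table. U2af1 had 84.5 ± 4.09% on retained-intron, 7.05 ± 1.14% on coding and 5.21 ± 3.68% on decay-targeted transcripts. Over its few counts the retained-intron share had a 95% Wilson interval of 71.5% to 82.0% in replicate 1 and of 78.1% to 86.2% in replicate 2, which covers counting error only. In the second table the share of U2af1 was 61.2%. U2af2 had 70.9 ± 1.57% on retained-intron and 12.04 ± 1.15% on decay-targeted transcripts. Sf1 had 60.2 ± 1.38% on retained-intron transcripts, but by counts Sf1 had 23.9 ± 1.32% and 43.0% of its TPM in the second table. U2af1l4, below 100 counts in replicate 1, had 63.0 ± 7.78% on retained-intron, 29.7 ± 6.89% on decay-targeted and 7.29 ± 0.899% on coding transcripts. It overlaps Gm49396 on the same strand over 2022 bases, so its counts are uncertain.

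Decay-targeted transcripts were a smaller part than retained introns. Among 29 members with enough counts and such a transcript, the share of TPM was 10% or more in 10, beside 32.5% of 2533 protein-coding genes. By counts it was 10% or more in 7, beside 28.2% of all such genes, and 6 members passed by both. The median share of TPM was 5.21% for the members and 4.49% for all genes. In the second table the order turned, with medians of 7.96% for the members and 9.48% for all genes. There the share was 10% or more in 12 of the 29 members, beside 48.4% of all such genes, and 9 members passed in both tables. These member counts are near those of genes at large.

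The members' 65 decay-targeted transcripts were sorted by how they differ from the coding transcripts. An added exon had to be absent from all coding transcripts of the gene, and a left-out exon was judged against the leading one. In 24, from 12 members, an added exon holds the stop codon, and these summed to 234 and 259 TPM in replicates 1 and 2. Another 16, from 10 members, leave out an exon, and these summed to 96.8 and 98.7 TPM. The other 25 met neither rule and summed to 123 and 101 TPM. They include Clk4-204 and Clk4-212, which skip exon 4, because the leading Clk4-202 starts after that exon. By expected counts the order turned, and these 25 led with 4555 and 4404 in replicates 1 and 2. The transcripts with an added exon had 2463 and 4016 counts, and those that leave out an exon had 1833 and 2840. A read was assigned to 48 of the 65 in at least 1 library. In 63 the stop codon lies more than 50 bases before the last exon junction, the usual distance for decay. The sort does not say which change creates the stop codon, and the 30-base exon left out by Luc7l2-204 lies apart from its stop.

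**Figure D4:**
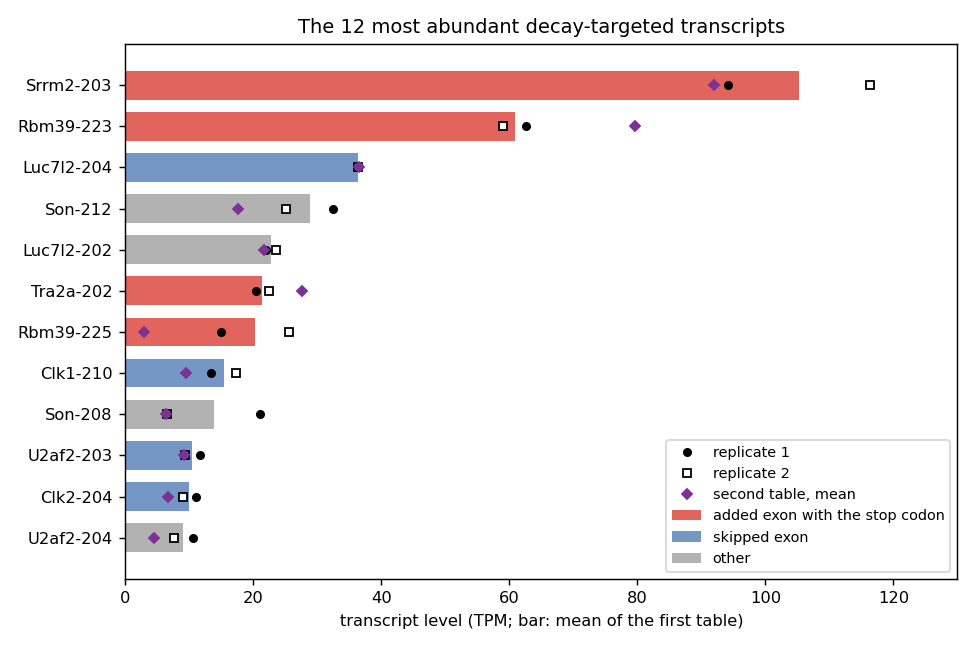
Level (TPM) of the 12 most abundant decay-targeted transcripts of the members in replicate 1 (circles), replicate 2 (open squares) and as the mean of the second table (diamonds), with bars at the mean of the first table, coloured by the change from the coding transcripts. Srrm2-203 and Rbm39-223 lead at 94.2 and 116 TPM and at 62.7 and 59.0 TPM, and Rbm39-225 is the one whose diamond falls furthest below its bar in proportion.

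Other splicing genes gave a scale for these values. The median level of the 34 members, 80.97 TPM, stood beside 70.9 TPM for 22 hnRNP genes, 44.1 TPM for 18 other SR-related and kinase genes, 19.4 TPM for 18 genes of the tri-snRNP and catalytic step, 18.3 TPM for 15 genes of nonsense-mediated decay and the exon junction, 16.9 TPM for 15 genes of U2 and SF3, and 5.90 TPM for 9 genes of U1 and Sm proteins. The hnRNP list was led by Hnrnpa2b1 at 818 TPM and Hnrnpu at 264 TPM, with Hnrnpa0 lowest at 3.16 TPM. Sf3b1 (208 TPM) and Dhx15 (78.0 TPM) led the U2 list, where Sf3b5 was lowest at 0.355 TPM. Thrap3 (207 TPM) and Ddx39b (127 TPM) led the other SR-related genes, and Srpk3, the muscle SRPK kinase, was lowest at 3.38 TPM. Smg1 (134 TPM) and Smg9 (39.7 TPM) led the decay factors above Smg8 (2.90 TPM). Ddx23 (42.0 TPM) and Ddx46 (38.2 TPM) led the tri-snRNP list above Prpf4 (6.90 TPM), and Snrpa (14.1 TPM) and Snrpd1 (8.76 TPM) led the U1 and Sm list above Snrpf (0.870 TPM).

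The median retained-intron share by TPM, 62.6% for the members, was close to 64.4% for 8 decay and exon junction genes and 60.5% for 11 U2 and SF3 genes. It was 53.3% for 14 tri-snRNP genes, 38.6% for 13 other SR-related genes and 38.2% for 15 hnRNP genes. By counts the median was 60.5% for the members, and these lists had medians of 29.0%, 38.2%, 18.1%, 27.4% and 23.0% in the same order. Over 2 U1 and Sm genes with enough counts the share was 48.1% by TPM and 68.9% by counts. Decay-targeted shares of 10% or more by TPM were more frequent in the other SR-related genes, in 7 of 8, and in the hnRNP genes, in 7 of 12, than in the members, in 10 of 29. None of these differences between lists was tested.

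In the first tables the 2 libraries gave close values for the members. Of the 33 members whose mean count was 10 or more, 0 differed 2-fold or more, beside 1.36% of 15193 genes that were 2-fold or more higher in replicate 2 and 1.48% that were lower. This count rests on 1 ratio per gene with no test, so there is no p-value behind it. Log2 ratios of replicate 2 over replicate 1 ran from -0.21 for Snrnp70 to 0.42 for Srsf9, with a median of 0.11 against 0.02 for all genes. The ratio was above 0 in 24 of the 33, beside 8017 of all 15193 genes. In the second transcript table every member had a higher TPM in replicate 2 than in replicate 1. Srsf1 had 29.2 and 57.0 TPM there, and U2af2 had 119.5 and 168 TPM. Whether genes at large shifted alike in that table was not computed.

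The second transcript table gave every detected member a mean level within 2-fold of the first. The first table's TPM over the second's had a median of 1.16 for 33 members and 0.845 for 11428 protein-coding genes. No member was at or below 0.5 of the second table's value, beside 15.4% of those genes, and none was at 2 times or more, beside 0.306%. At the level of classes the tables differed more, and 17 of the 20 members stayed at 50% or more for retained introns in both. The other 3 were Rbm39 at 41.2%, Sf1 at 43.0% and Luc7l at 49.6% in the second table. Of the 30 members with enough counts and a retained-intron transcript, 17 were at 50% or more there, beside 44.4% of 5042 protein-coding genes. The median retained-intron shares there were 56.9% for the members and 46.5% for those genes. By the TPM of the first table these medians were 62.6% and 49.0%.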

How the data were processed

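As the deposited notes state, the authors made the gene table and a first transcript table per library from an alignment to GENCODE M21 transcripts (mm10), and a second transcript table straight from the reads. Its column layout is that of kallisto and the first tables' is that of RSEM, while the tools themselves and their versions are not stated. The deposited expected counts (estimated counts in the second table) are reads shared out over transcripts, not whole numbers. The deposited TPM divides them by effective length, and the authors' first table also gives each transcript's percent of its gene's TPM. Entries naming no gene (0.338% and 0.270% of counts) were left out.

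Transcript types, coordinates and sequences came from GENCODE M21. Class shares were computed per gene from transcript TPM, and again from counts, for genes with at least 100 expected counts in each library. Library ratios used counts scaled by TMM (edgeR 4.0.16, R 4.3.3) plus 0.5. Steps were tested on simulated data, in Python 3.11.15 with pandas 2.3.3. Members and lists were chosen with earlier results of these data known. Members with a full split were the 6 highest and 4 lowest by level, the 5 highest and 3 lowest by retained-intron share and the 5 highest by decay-targeted share. Of each other list the 2 highest and the lowest gene are named. The CLK genes were followed after values were seen. Settings of the alternatives are given with their effect in the closing section. Intervals and floors hold counting error alone: without molecular identifiers, reads may repeat a molecule.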

Additional observations from a re-analysis of the deposited data

How the results depend on the processing

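The count of detected members was 33 or 34 under every alternative, and the counts of members past the retained-intron and decay-targeted thresholds stayed within 1.5 times of 20 and 10 under all that were run, 1 of them, transcripts of at least 600 bases only, chosen after seeing the data. The members' median of 80.97 TPM became 75.5 with the posterior mean TPM, 87.0 in the second transcript table, 318 when TPM was scaled over protein-coding genes only and 95.6 as a geometric mean of TPM + 1, less 1. Over TPM instead of counts the members' split was 22.0% coding, 58.2% retained intron, 7.67% decay-targeted and 12.2% other. In the second table's counts it was 36.5% coding, 8.77% decay-targeted and 6.24% other. With no filter on low counts 1 member, Srsf12, differed 2-fold between libraries. With a single library in turn the median was 80.8 to 81.1 TPM, 21 members were past the retained-intron threshold and 8 to 10 past the decay-targeted one. Of 31 single-gene retained-intron shares 27 moved by more than the spread between libraries when counts were used and 25 in the second table, and the cause was not tested. For Srsf4, Srsf9, U2af1l4 and U2af1, with at most 530 counts in a library, depth limits any share of a class. No paired analysis was possible because the series has 1 group.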
